A study of Mus musculus with 18 samples.

Results

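The genes examined encode the nuclear subunits of oxidative phosphorylation, the mitochondrial machinery that turns the energy of food electrons into ATP, in mouse cerebellar RNA. They were chosen by gene symbol: the Nduf families for complex I, Sdha to Sdhd for complex II, Cyc1 and the Uqcr genes for complex III, the Cox4 to Cox8 families for complex IV and the Atp5 family for complex V, with cytochrome c (Cycs). Of 22783 genes in the table, 86 had such a symbol and 85 of those reached an FPKM of at least 1 in 3 or more of 18 libraries, the same filter that left 13487 genes for testing. FPKM are fragments scaled to transcript length and to the mapped fragments of a library. The 85 comprised 36 genes of complex I, 4 of complex II, 9 of complex III, 17 of complex IV and 15 of complex V. The other 4 match by symbol and are not subunits of a complex: Cycs, the supercomplex factor Cox7a2l, Atp5s (factor B) and Atp5sl, an assembly protein. Ndufa4 was counted in complex IV, where the protein is now placed despite its name. The gene that failed the filter was Cox8c, the testis isoform of subunit 8, listed at 0 FPKM in all 18 libraries. Just inside the filter, Cox6a2 reached 1 FPKM in 9 libraries and Cox8b in 17. The 13 subunits that mitochondrial DNA encodes were not analysed here.

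RNA was taken from dissected cerebella of mice on the FVB background, with 3 libraries for each of 2 genotypes at 5, 12 and 28 weeks after birth. ATXN1[30Q]D776/Cck-/- mice, called transgenic here, carry a transgene of ataxin-1 with aspartate in place of a phosphorylated serine and lack Cck, the cholecystokinin gene. Cck-/- mice lack Cck alone. The series addresses cholecystokinin signalling in mouse models of spinocerebellar ataxia, a disease of Purkinje cells, through which the cerebellar cortex sends its output. Both genotypes are labelled Cck-/-, so no comparison measures the loss of Cck. The labels do not name the promoter of the transgene; ATXN1[30Q]D776 mice are known from earlier work to express it in Purkinje cells from the Pcp2 promoter. Nothing in the labels states that libraries of a group are separate animals, and p-values then measure the spread between libraries, which may be technical. A whole cerebellum also holds many cell types, and fewer cells of a type cannot be told apart from less RNA per cell.

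Complexes I to IV form the electron transport chain of the inner mitochondrial membrane. Complex I takes electrons from NADH, complex II from succinate, complex III passes them to cytochrome c, and complex IV hands them to oxygen. Complexes I, III and IV pump protons, and complex V, the ATP synthase, lets the protons back to make ATP. Purkinje cells fire without pause and have a high demand for ATP, and most nuclear subunits are expressed in every cell type.

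Promoters of these genes are known to hold sites for the transcription factors NRF1, GABP (an ETS factor), YY1, SP1 and ERR, so 1 motif for each was searched on both strands in windows of 300 bases around RefSeq gene starts (GRCm38.p6). Windows were found for 68 of the 85 genes, 73 windows in all. The NRF1 motif, GCGCA followed by any base and GCGC, stood in 24.7% of them (18 of 73), against 9.16% of windows of the other genes tested and 4.56% of all other promoter windows. The ETS motif CCGGAAG stood in 21.9%, against 15.8% and 8.83%, and the YY1 motif AAGATGGC in 12.3%, against 4.04% and 2.73%. The SP1 motif GGGCGG was in 39.7% of the windows, against 61.9% of other genes tested and 35.6% of all others, and the ERR motif TCAAGGTCA in 2.74%, against 0.285% and 0.418%. The YY1 motif was found in 7 of 34 windows of complex I, in 2 of 16 of complex V and in none of the windows of complexes II, III and IV. A match describes the letters of a window and is not evidence that a factor binds.

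Among the 10 genes lower in transgenic libraries at week 28 (described below), 4 held an NRF1 or ETS motif in the 250 bases before the start. Of all 68 genes with a promoter window, 17 held the NRF1 motif and 16 the ETS motif. Those windows also covered 50 bases after the start. A match is thus not particular to the genes called lower, and a link between motifs and the fall was not tested. The 4 stretches are printed only to show where the letters lie. Capitals mark the motif, and CTTCCGG is the ETS motif on the opposite strand. In Sdhd, a membrane anchor of complex II, NRF1 and ETS motifs begin at positions -79 and -46 from the start (chr9:50603850-50604099, minus strand). In Ndufa11, a membrane-arm accessory subunit of complex I, the NRF1 motif is at -60 and reads the same way on both strands (chr17:56717512-56717761, plus strand). The ETS motif is at -102 in Atp5e (chr2:174464102-174464351, minus strand) and at -232 in Ndufb6 (chr4:40279422-40279671, minus strand).
Sdhd: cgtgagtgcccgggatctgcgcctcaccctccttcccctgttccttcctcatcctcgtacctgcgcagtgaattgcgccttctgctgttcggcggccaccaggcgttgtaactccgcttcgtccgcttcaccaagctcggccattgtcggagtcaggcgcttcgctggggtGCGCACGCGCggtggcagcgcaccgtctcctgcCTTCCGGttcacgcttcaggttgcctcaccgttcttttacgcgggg
Ndufa11: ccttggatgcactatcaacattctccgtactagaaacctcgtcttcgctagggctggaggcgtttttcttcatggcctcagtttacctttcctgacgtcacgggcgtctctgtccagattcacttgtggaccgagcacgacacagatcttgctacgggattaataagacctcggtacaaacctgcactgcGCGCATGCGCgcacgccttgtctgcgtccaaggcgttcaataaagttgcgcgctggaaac
Atp5e: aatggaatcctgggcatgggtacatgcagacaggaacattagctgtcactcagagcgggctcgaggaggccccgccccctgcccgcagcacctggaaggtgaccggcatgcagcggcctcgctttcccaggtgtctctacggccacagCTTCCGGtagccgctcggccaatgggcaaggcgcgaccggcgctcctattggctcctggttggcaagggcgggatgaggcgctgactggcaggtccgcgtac
Ndufb6: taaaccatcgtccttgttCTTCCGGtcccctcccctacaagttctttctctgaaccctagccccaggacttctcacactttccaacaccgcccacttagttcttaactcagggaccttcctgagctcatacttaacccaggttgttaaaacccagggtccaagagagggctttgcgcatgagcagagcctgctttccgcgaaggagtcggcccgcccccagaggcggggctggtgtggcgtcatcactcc
Only NRF1 and ETS motifs are marked in capitals. The same 250 bases of Cox7a1, Cox7c, Cycs, Ndufa1, Ndufa4 and Ndufa7 held neither an NRF1 nor an ETS motif, which says only that these letters are absent from those windows.

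The subunit genes were among the most abundant messages of the tissue. Their median level over 18 libraries was 184 FPKM, against 11.8 FPKM over all genes tested, and 72 of the 85 averaged at least 100 FPKM, which 5.30% of all genes did. The catalytic beta subunit of ATP synthase, Atp5b, averaged 998 FPKM and the general subunit Cox4i1 of complex IV averaged 993 FPKM. Levels followed the complexes: medians were 153 FPKM for complex I, 124 for complex II, 253 for complex III, 349 for complex IV and 356 for complex V. Within complex I they spanned 23.5 FPKM (Ndufa11) to 323 FPKM (Ndufb8), within complex II 105 (Sdhd) to 198 (Sdha), within complex III 146 (Uqcrfs1, the Rieske iron-sulphur protein) to 485 (Uqcrh, the hinge protein), and within complex V 188 (Atp5d) to 998. The widest span was in complex IV, where isoforms of muscle, lung and testis are expressed at low levels: the heart and muscle isoform Cox6a2 ran from 0.0476 to 4.25 FPKM over the libraries. Of the 4 genes outside the complexes, Atp5s was lowest at 11.6 FPKM and Cox7a2l highest at 126 FPKM.

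**Figure D1:**
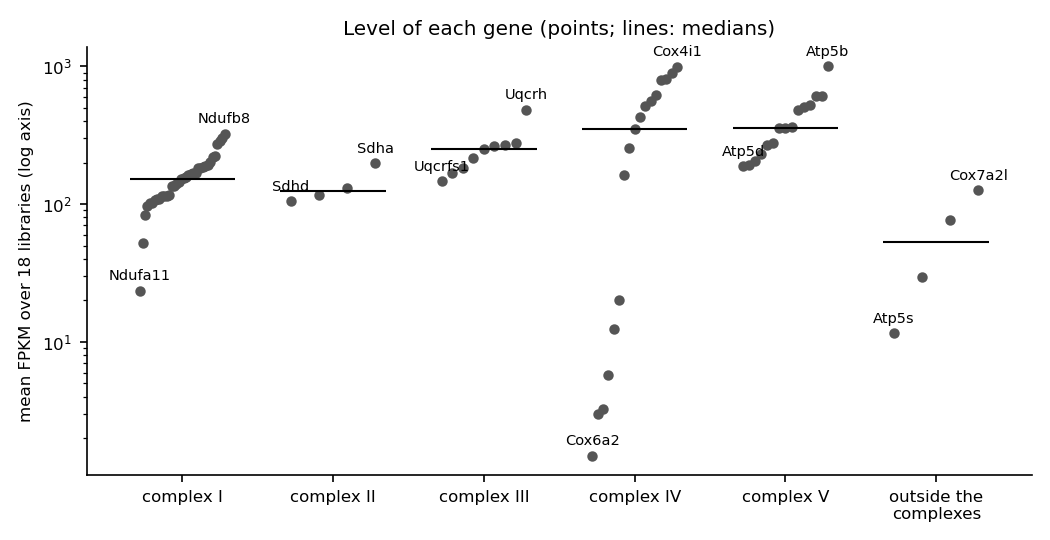
Mean FPKM over 18 libraries (log axis) of each of the 85 genes, grouped by complex; points are genes and lines are medians. Complexes IV and V have the highest medians, 349 and 356 FPKM, and complex IV has the widest span, with Cox4i1 on top at 993 FPKM and Cox6a2 at the bottom.

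Summed over its genes, every complex had its lowest group mean in transgenic libraries at week 28. The 15 genes of complex V summed to 6481 ± 144, 6395 ± 509 and 5359 ± 365 FPKM in transgenic libraries aged 5, 12 and 28 weeks, against 6710 ± 228, 6136 ± 263 and 5908 ± 132 FPKM in Cck-/- libraries (mean ± SD, n = 3 each). Complex IV summed to 6876 ± 224, 6389 ± 708 and 5410 ± 311 FPKM in transgenic libraries at the 3 ages, against 7563 ± 248, 5969 ± 410 and 6269 ± 400 FPKM in Cck-/- libraries. The complex IV sum in Cck-/- libraries was thus highest at week 5, while the transgenic sum was lowest at week 28. Complex I summed to 5908 ± 220, 5884 ± 494 and 5115 ± 275 FPKM in transgenic libraries, against 6043 ± 184, 5625 ± 210 and 5613 ± 115 in Cck-/- libraries. Complex III summed to 2384 ± 68.1, 2279 ± 160 and 1948 ± 113 FPKM in transgenic libraries, against 2549 ± 66.7, 2228 ± 108 and 2180 ± 55.2 in Cck-/- libraries. Complex II moved least, with 548 ± 7.48, 570 ± 39.0 and 528 ± 21.2 FPKM in transgenic libraries, against 548 ± 10.2, 550 ± 4.16 and 561 ± 12.0 in Cck-/- libraries. At week 12 the transgenic replicate 2 stood apart, with a summed level over the 85 genes of 23825 FPKM, the highest of its group, whose lowest library had 20022 FPKM.

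**Figure D2:**
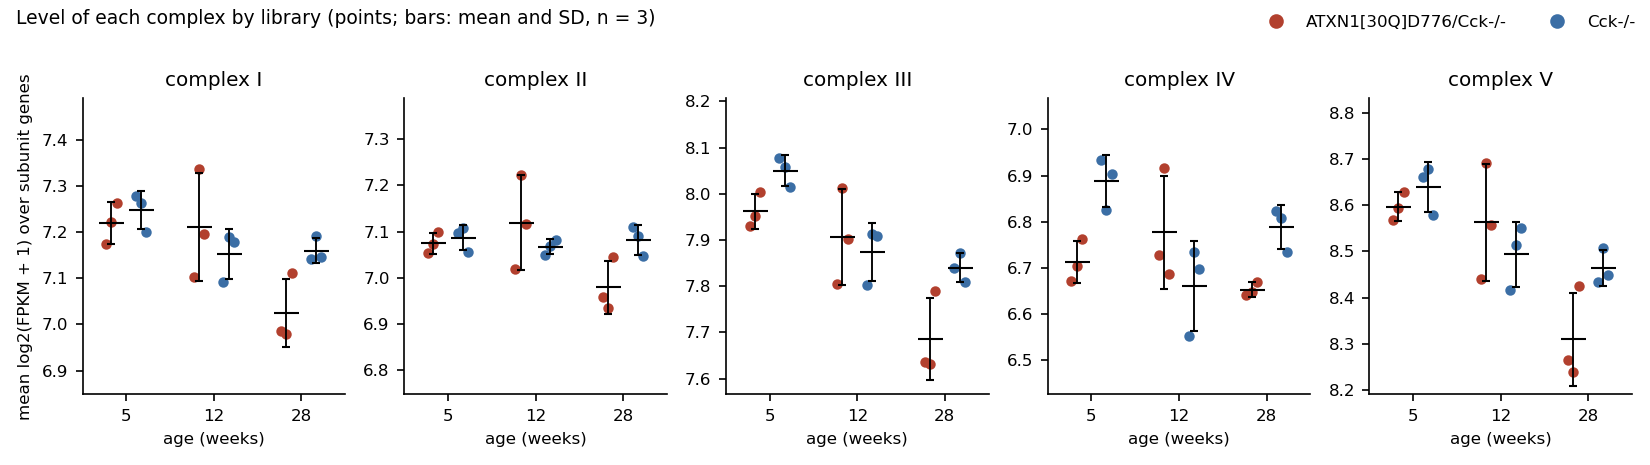
Mean log2(FPKM + 1) over the genes of each complex in each library, by age in weeks; red points are ATXN1[30Q]D776/Cck-/- and blue points Cck-/- libraries, and bars give the mean and SD (n = 3). Each panel has its own range of equal height. At week 28 the transgenic means lie below the Cck-/- means in all 5 complexes, for example 8.31 against 8.46 in complex V.

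Several facts of the libraries bear on these genes. FPKM summed to between 389248 and 441509 per library, and read depth is unknown. The 8 Purkinje cell markers were all lower in transgenic libraries at week 28, with summed levels of 1050 to 2051 FPKM in transgenic libraries and 2882 to 3097 FPKM in Cck-/- libraries. Microglial markers were called higher at that age in 4 of 6 cases, with sums of 106 to 156 FPKM against 61.5 to 92.5 FPKM. Of the 7 astrocyte and Bergmann glia markers 3 were higher and 3 lower, of 7 oligodendrocyte markers 1 was higher, of 5 interneuron markers 2 were lower, and none of 8 granule neuron, 9 choroid plexus, 7 meningeal, 5 red blood cell, 2 tested brainstem and 1 tested muscle markers was called. Choroid plexus markers were low in transgenic week 5 replicates 1 and 2 and week 28 replicate 3, with group sums of 113 to 3426 FPKM at week 5 and 145 to 2444 FPKM at week 28. Transgenic week 5 replicate 1, week 12 replicate 2 and week 28 replicate 1 held both Xist and Y-linked transcripts at 1 FPKM or more. Cck, labelled absent from every animal, stood at 98.1 ± 15.6 FPKM in transgenic and 20.8 ± 4.51 FPKM in Cck-/- libraries at week 5. The week 12 means were 14.8 ± 2.21 FPKM in transgenic and 13.9 ± 2.74 FPKM in Cck-/- libraries, and the week 28 means 6.51 ± 1.76 FPKM and 4.97 ± 2.06 FPKM, so Cck was listed above 0 in both genotypes at all 3 ages. Choroid plexus level was fitted as a covariate and the libraries named were left out as alternatives. The part of the other cell types in the results was not tested.

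At week 28, 10 of the 85 genes fell in transgenic against Cck-/- cerebella and none rose, and most of the rest had small negative values that did not pass the test. With limma on log2(FPKM + 1) over 13487 genes, the 10 passed at an adjusted p under 0.05, 11.8% of the 85, where 10.7% of all genes tested were called, 4.54% higher and 6.13% lower. The median log2 fold change of the 85 was -0.14, a level 9.25% lower, against 0.0046 over all genes tested, and 81 of the 85 were negative, against 48.4% of all genes. The 2 groups did not overlap, with all transgenic libraries lower, in 32 of the 85 (37.6%), where 12.9% of all genes showed this. They did not overlap with transgenic libraries higher in 1 gene, Cox7b2, against 13.2% of all genes. Medians by complex were -0.13 for I, -0.08 for II, -0.15 for III, -0.20 for IV and -0.13 for V, and differences between complexes were not tested, since their genes are measured in the same libraries. Quantile normalization reduced the median of the 85 to -0.05.

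Cox7a1, the heart and muscle isoform of subunit 7a of complex IV, fell most. It stood at 14.0, 16.4 and 14.6 FPKM in transgenic libraries, against 24.9, 22.0 and 21.8 FPKM in Cck-/- libraries. Every transgenic library was below every Cck-/- library, and the log2 fold change was -0.58 (SE 0.11, limma adjusted p = 0.00286). Cox7c, a subunit of complex IV in every tissue, had 381, 367 and 427 FPKM in transgenic libraries, against 478, 504 and 458 FPKM in Cck-/- libraries. It fell by 0.29 on the log2 scale (SE 0.07, limma adjusted p = 0.0165) with no overlap between groups. Ndufa4 had 671, 667 and 752 FPKM in transgenic libraries and 814, 859 and 811 FPKM in Cck-/- libraries, and fell by 0.25 (SE 0.07, limma adjusted p = 0.0392). All 11 general subunits of complex IV had negative values at this age, and 2 of them, Cox7c and Ndufa4, passed the test. Those that missed it include Cox4i1 (-0.20, limma adjusted p = 0.0887), Cox6a1 (-0.25, 0.188) and Cox8a (-0.22, 0.218).

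Among the subunits of complex I, 4 of 36 fell. All 4 are accessory subunits, which surround the catalytic core, as are 29 of the 36. Ndufa7, in the peripheral arm, had 113, 116 and 119 FPKM in transgenic libraries, against 140, 144 and 135 FPKM in Cck-/- libraries. These values spread little within a group, and the log2 fold change was -0.27 (SE 0.05, limma adjusted p = 0.00530). Ndufa1 had 147, 139 and 153 FPKM in transgenic libraries, against 169, 186 and 178 FPKM in Cck-/- libraries (-0.28, SE 0.07, limma adjusted p = 0.0246). Ndufb6 had 127, 125 and 147 FPKM in transgenic libraries, against 158, 161 and 161 FPKM in Cck-/- libraries (-0.27, SE 0.07, limma adjusted p = 0.0265). Ndufa11 was low in both groups, with 20.6, 21.7 and 21.7 FPKM in transgenic and 24.2, 25.2 and 24.4 FPKM in Cck-/- libraries (-0.20, SE 0.06, limma adjusted p = 0.0464). In all 4 genes the transgenic libraries lay below the Cck-/- libraries without overlap. Ndufa11 and Ndufb6 overlap the genes Vmac and Smim27 on the other strand (GENCODE M21), and the sources used here give no strand setting for the counting. The 7 core subunits, which carry the flavin and iron-sulphur clusters or bind quinone, were all negative with a median of -0.11 and none called.

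In complex II, the membrane anchor Sdhd had 88.2, 83.5 and 95.2 FPKM in transgenic libraries, against 105, 104 and 101 FPKM in Cck-/- libraries. It fell by 0.22 on the log2 scale (SE 0.06, limma adjusted p = 0.0283). The flavoprotein Sdha, which holds the succinate site, was at 206, 200.5 and 217 FPKM in transgenic libraries and 213, 214 and 206 FPKM in Cck-/- libraries, groups that overlap (-0.03, SE 0.04). No gene of complex III passed the test, although all 9 were negative and 5 had an unadjusted p under 0.05. Uqcr11, a small accessory subunit, was lowest of them, with 186, 193 and 216 FPKM in transgenic libraries and 227, 249 and 243 FPKM in Cck-/- libraries (-0.27, SE 0.09, limma adjusted p = 0.0639). In complex V all 15 genes were negative and 1 was called. Atp5e, the epsilon subunit of the rotating stalk, had 262, 258 and 302 FPKM in transgenic libraries, against 355, 369 and 329 FPKM in Cck-/- libraries (-0.36, SE 0.09, limma adjusted p = 0.0238). Its partners in the catalytic head and central stalk had a median of -0.10 together with it, over 5 genes. Cycs, the soluble carrier between complexes III and IV, had 57.6, 57.4 and 69.1 FPKM in transgenic libraries, against 75.3, 76.5 and 73.4 FPKM in Cck-/- libraries (-0.29, SE 0.07, limma adjusted p = 0.0197). The 4 genes of the 85 with positive values were Cox6a2, Cox7b2, Ndufs5 and Cox7a2l, and none was called.

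**Figure D3:**
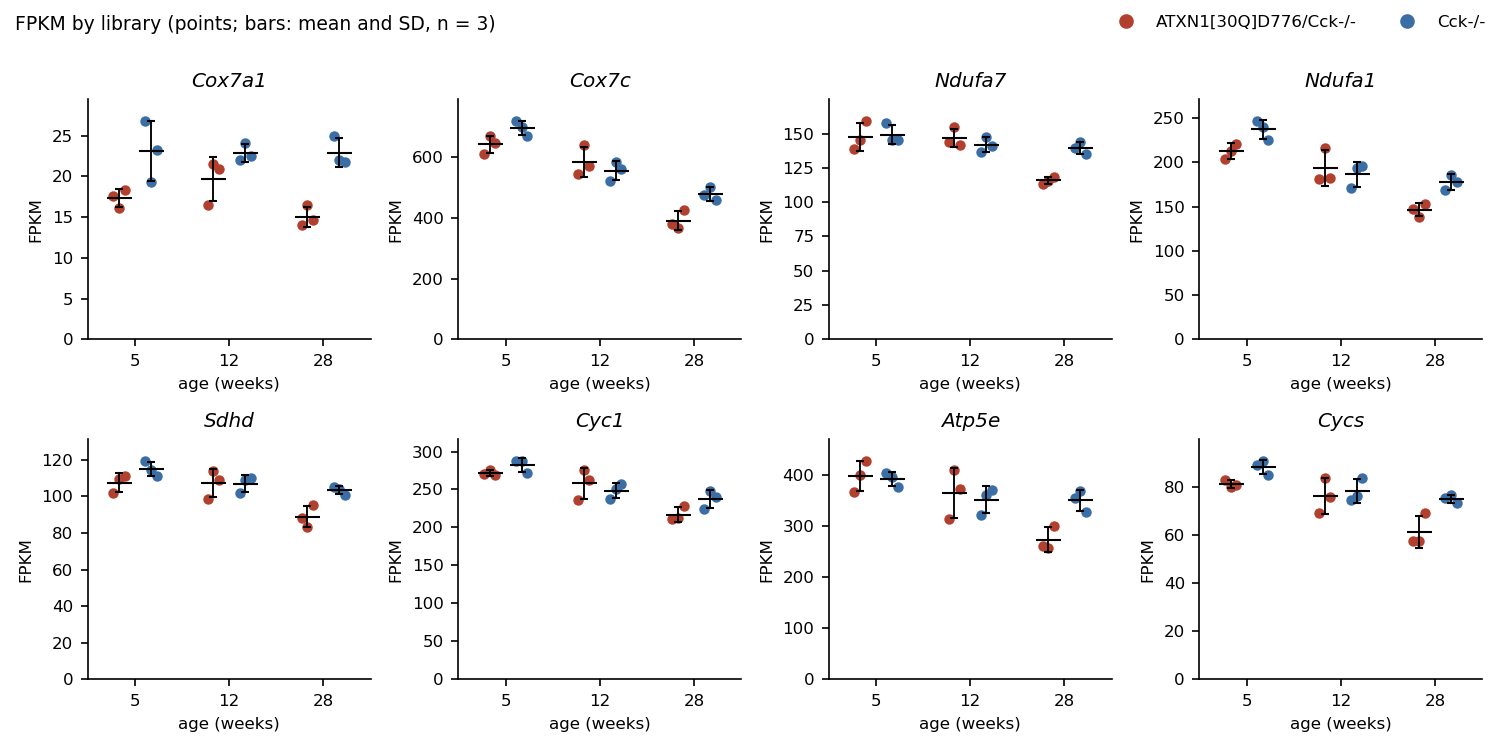
FPKM in each library by age in weeks for 8 genes; red points are ATXN1[30Q]D776/Cck-/- and blue points Cck-/- libraries, and bars give the mean and SD (n = 3). At week 28 the transgenic points of Cox7a1 (14.0 to 16.4 FPKM) lie below the Cck-/- points (21.8 to 24.9 FPKM), and at week 12 the transgenic points of most genes spread around the Cck-/- points.

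The calls at week 28 varied with single libraries. Cox7a1 and Ndufa7 kept their call when any 1 library was left out, with highest adjusted p of 0.0188 and 0.0324, and the other 8 lost it in at least 1 case. Without transgenic replicate 2 the adjusted p was 0.125 for Ndufa1, 0.138 for Ndufb6, 0.163 for Ndufa4, 0.0970 for Cox7c, 0.153 for Sdhd, 0.116 for Atp5e and 0.110 for Cycs, and without transgenic replicate 1 it was 0.169 for Ndufa11 (limma). The count was 2 without transgenic replicate 1, without transgenic replicate 2 or without Cck-/- replicate 2, and 31 without transgenic replicate 3. It was 22 without the 3 libraries low in choroid plexus markers, 3 without the 3 that held Xist together with Y-linked transcripts, and 17 without transgenic week 12 replicate 2. The shares of all genes called in these repeats are not given here.

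At week 5, 2 of the 85 genes fell in transgenic libraries and none rose. That share, 2.35%, is below the background, since 7.67% of all genes were called, 3.3% higher and 4.37% lower, and neither call held without each library in turn. The groups did not overlap in 23 genes with transgenic libraries lower (27.1%, against 16% of all genes) and in 4 with them higher, against 15.1% of all genes. Cox6b2, the testis isoform of subunit 6b, had 10.8, 9.39 and 11.6 FPKM in transgenic libraries, against 14.7, 15.2 and 16.2 FPKM in Cck-/- libraries (log2 fold change -0.50, SE 0.12, limma adjusted p = 0.0165). Cox7a1 had 17.7, 16.1 and 18.3 FPKM in transgenic libraries, against 26.8, 19.4 and 23.2 FPKM in Cck-/- libraries (-0.38, SE 0.11, limma adjusted p = 0.0423). Neither pair of groups overlapped. Cox6b2 had an adjusted p of 0.0817 without transgenic replicate 2 and Cox7a1 one of 0.184 without Cck-/- replicate 1; neither was called without the libraries low in choroid plexus markers. All 17 genes of complex IV had negative values, with a median of -0.13, against -0.06 over the 85 and 0.0003 over all genes. In this comparison 4 of 7 oligodendrocyte, 2 of 8 Purkinje cell and 1 of 7 astrocyte and Bergmann glia markers were lower. Of the interneuron markers 3 of 5 were higher, and no marker of the other lists was called. The part of these cell types in the result was not tested.

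At week 12 the direction was the other way and no gene of the 85 was called (limma), with 4 at an unadjusted p under 0.05, where 1.36% of all genes were called, 0.282% higher and 1.08% lower. The groups did not overlap in 1 gene with transgenic libraries lower and in none with them higher, against 8.74% and 7.95% of all genes. That gene was Cox7a1 (log2 fold change -0.22, SE 0.11, limma adjusted p = 0.455). The median of the 85 was 0.05, and 75 of the 85 were positive. The smallest p belonged to the complex I subunit Ndufs6, at 112, 145 and 123 FPKM in transgenic libraries and 104, 112 and 115 FPKM in Cck-/- libraries (0.19, SE 0.08, limma adjusted p = 0.346). Next were the low isoforms Cox7b2 (0.65, SE 0.27, 0.355) and Cox8b (0.58, SE 0.26, 0.374). Without transgenic replicate 2 the median of the 85 was -0.0037, so the positive values at this age rested on that library.

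**Figure D4:**
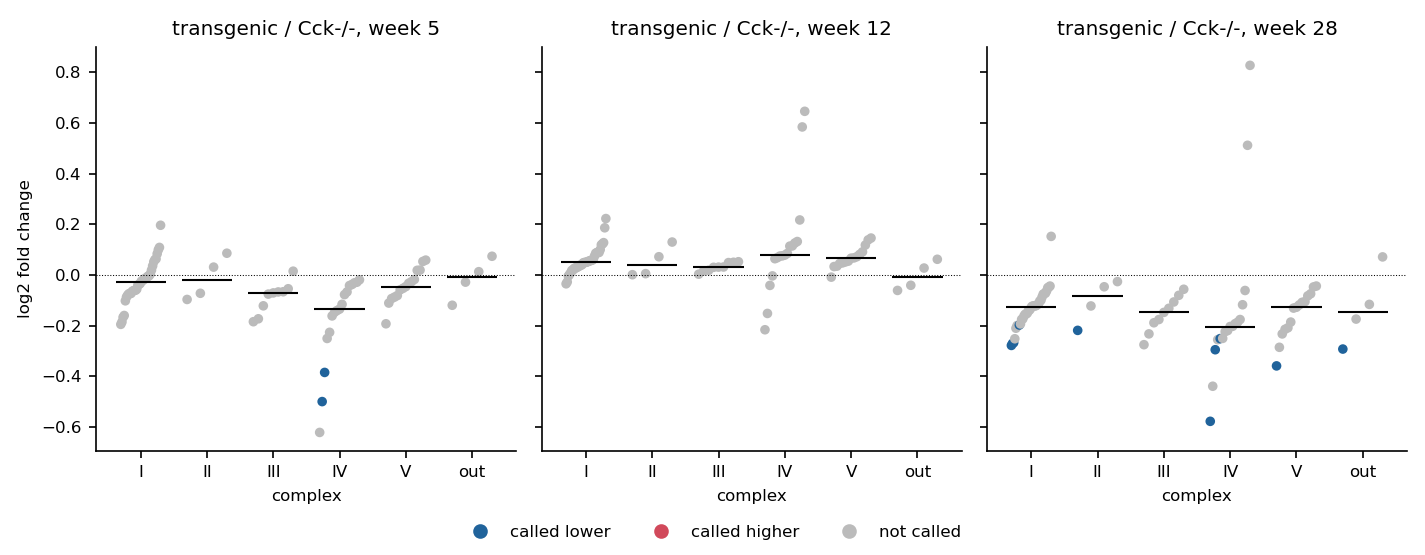
Log2 fold change, transgenic over Cck-/-, of each of the 85 genes at 3 ages, by complex (out: the 4 genes outside the complexes); blue points are genes called lower, grey points genes not called, and lines are medians. At week 28 all 5 complex medians lie below 0, between -0.08 and -0.20, and 10 points are blue.

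The change of the genotype effect between ages was then fitted as an interaction. Between weeks 12 and 28 the effect of the transgene moved down in 83 of the 85 genes, with a median of -0.20 and 39 genes at an unadjusted p under 0.05, but limma called none, and it called 0% of all 13487 genes. Ndufa7 had the smallest p (log2 change of the effect -0.32, SE 0.08, limma adjusted p = 0.394), followed by Cox7c (-0.36, SE 0.10, limma adjusted p = 0.394) and Ndufb6 (-0.36, SE 0.10, limma adjusted p = 0.394). With library weights 50 were called, 49 of them downward. The share of all genes called with library weights is not given here, nor is the share at an unadjusted p under 0.05. Neither count is thus set against a background. Between weeks 5 and 28 none was called (limma), with 7 at an unadjusted p under 0.05 and a median of -0.10, where 3.65% of all genes were called, 1.73% upward and 1.92% downward. The smallest p were those of Ndufa7 (-0.25, SE 0.08, limma adjusted p = 0.0869), Atp5e (-0.38, SE 0.13, limma adjusted p = 0.128) and Ndufb5 (-0.18, SE 0.06, limma adjusted p = 0.139). Between weeks 5 and 12 none was called, with 6 at an unadjusted p under 0.05 and a median of 0.10, where 0.667% of all genes were called, 0.452% upward and 0.215% downward. All 15 genes of complex V and all 17 of complex IV had positive values in that interaction. The smallest p were those of Ndufb9 (0.30, SE 0.10, limma adjusted p = 0.225), Atp5o (0.24, SE 0.10, limma adjusted p = 0.321) and Ndufa3 (0.28, SE 0.11, limma adjusted p = 0.322). The genotype effects at 3 ages are thus given side by side, and no member's effect was shown to differ between ages.

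Within the transgenic genotype, 40 of the 85 genes fell at week 28 against week 12, with members in every complex, and none rose (47.1%), where 23.8% of all genes were called, 10.2% higher and 13.7% lower. The groups did not overlap, with week 28 lower, in 36 of the 85 (42.4%), against 19.8% of all genes, and in none with week 28 higher, against 18.3%. The median log2 fold change was -0.19, a level 12.6% lower, against -0.0031 over all genes. By complex, 15 of 36 fell in I, 2 of 4 in II, 5 of 9 in III, 6 of 17 in IV and 10 of 15 in V, with medians of -0.17, -0.16, -0.20, -0.19 and -0.23. These libraries include the week 28 transgenic libraries of the genotype comparison, and 8 of the 10 genes called there (80%) are among the 40 (20% of them), so the 2 lists are not independent. Over the same interval, markers of Purkinje cells fell in 7 of 8 cases and markers of microglia rose in all 6. Of the granule neuron markers 2 of 8 fell, of the 7 astrocyte and Bergmann glia markers 3 rose and 2 fell, and 1 of 7 meningeal markers rose. No marker of the other lists was called, and the part of these cell types in the result was not tested.

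Cox7c fell most clearly: it had 381, 367 and 427 FPKM at week 28, against 545, 640 and 570 FPKM at week 12 (log2 fold change -0.58, SE 0.07, limma adjusted p = 0.000194). In complex V the largest change was in Atp5l, subunit g of the membrane part, with 393, 384 and 449 FPKM at week 28, against 522, 620 and 577 FPKM at week 12 (-0.49, SE 0.08, limma adjusted p = 0.00115). Of the 6 membrane genes of complex V 5 fell, of the 4 peripheral stalk genes 3 fell, among them Atp5o (-0.32, SE 0.07, limma adjusted p = 0.00432), and of the 5 genes of head and central stalk Atp5b and Atp5e fell. In complex I the accessory subunits Ndufb2 (-0.49, SE 0.09), Ndufc1 (-0.48, SE 0.09), Ndufa1 (-0.40, SE 0.07), Ndufa7 (-0.34, SE 0.05), Ndufa13 (-0.33, SE 0.07) and Ndufb11 (-0.29, SE 0.06) fell, with limma adjusted p from 0.000933 to 0.00465. Ndufb2 shares its position with Braf on the other strand. The core subunits Ndufs8 and Ndufs7 were among those that fell; Ndufs8, which holds iron-sulphur clusters next to the quinone site, had 91.3, 91.6 and 101 FPKM at week 28, against 111, 121 and 112 FPKM at week 12 (-0.27, SE 0.05, limma adjusted p = 0.00321). Both membrane anchors of complex II fell, Sdhd (-0.27, SE 0.06, limma adjusted p = 0.00578) and Sdhc (-0.17, SE 0.05, limma adjusted p = 0.0146). Sdha did not pass and had a positive value (0.04, SE 0.04). In complex III, Uqcr11 had 186, 193 and 216 FPKM at week 28, against 233, 310 and 246 FPKM at week 12 (-0.40, SE 0.09, limma adjusted p = 0.00642), and cytochrome c1 (Cyc1) fell by 0.25 (SE 0.06, limma adjusted p = 0.00767).

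Leaving out each library in turn kept 18 of these 40 calls in every case, Cox7c, Atp5l, Ndufa7, Sdhd, Uqcr11 and Cyc1 among them, and 22 were lost in at least 1 case. The count was 19 without transgenic week 12 replicate 2, 23 without week 28 replicate 1 and 21 without week 28 replicate 2. It was 7 without the 3 that held Xist together with Y-linked transcripts and 9 when only these 2 groups were fitted. Between weeks 5 and 12 no gene of the 85 was called in transgenic libraries (limma), with 5 at an unadjusted p under 0.05 and a median of -0.02, where 1.19% of all genes were called, 0.593% higher and 0.601% lower. The groups did not overlap in 5 genes with week 12 higher and in 1 with week 12 lower, against 8.59% and 9.13% of all genes. The testis isoform Cox7b2 was nearest, at 5.40, 10.6 and 5.34 FPKM at week 12, against 2.40, 2.18 and 3.53 FPKM at week 5 (1.09, SE 0.27, limma adjusted p = 0.0753). Sdha (0.10, SE 0.04, 0.305) and Ndufb5 (-0.11, SE 0.04, 0.306) followed.

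In Cck-/- cerebella, 17 of the 85 genes fell between weeks 5 and 12 (20%) and 1 rose, where 11.8% of all genes were called, 5.29% higher and 6.53% lower. The groups did not overlap in 39 with week 12 lower (45.9%) and in 2 with week 12 higher, against 17.9% and 17.4% of all genes. The median was -0.11, against 0.0059 over all genes. Over the same interval all 7 oligodendrocyte markers fell, with sums of 2223 to 2604 FPKM at week 12 and 4818 to 5828 FPKM at week 5. Of the other markers, 1 of 8 for granule neurons and 1 of 7 for meninges fell, and 2 of 5 for interneurons rose. The part of these cell types in the result was not tested. Of the 17, 8 belong to complex IV, all of them among its 11 general subunits. Cox8a, the general isoform of subunit 8, had 632, 738 and 744 FPKM at week 12, against 1029, 1055 and 1004 FPKM at week 5 (-0.55, SE 0.11, limma adjusted p = 0.00503). Cox6a1 had 671, 832 and 864 FPKM at week 12, against 1133, 1105 and 1061 FPKM at week 5 (-0.49, SE 0.12, limma adjusted p = 0.0143), and Cox6b1 fell by 0.44 (SE 0.09, limma adjusted p = 0.00604). Week 12 replicate 1 was the lowest library of its group in all 3 genes, and no week 12 value reached a week 5 value. Cox7c, Cox5b, Cox4i1, Ndufa4 and Cox6c fell by between 0.24 and 0.38. In complex I Ndufb9 (-0.36, SE 0.07, limma adjusted p = 0.00534) and Ndufa1 (-0.35, SE 0.07, limma adjusted p = 0.00643) led 4 of 36, in complex III Uqcr11 (-0.42, SE 0.09, limma adjusted p = 0.00700) led 3 of 9, and in complex V Atp5o and Atp5g1 fell. Sdha went the other way: it had 204, 202 and 200 FPKM at week 12, against 175, 184 and 176 FPKM at week 5 (0.18, SE 0.04, limma adjusted p = 0.0102).

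Of these 18 calls 7 held without each library in turn (Cox8a, Cox6b1, Cox7c, Ndufa1, Ndufb9, Uqcr11 and Sdha). The count was 7 without week 12 replicate 1, 8 without week 5 replicate 1 and 8 without week 5 replicate 2. Cox6a1 had an adjusted p of 0.0760 without week 12 replicate 1. Between weeks 12 and 28 in Cck-/- libraries, 2 genes rose and 1 fell, 2.35% and 1.18% of the 85, where 9.65% of all genes were called, 4.03% higher and 5.62% lower. The groups did not overlap in 14 genes with week 28 higher and in 10 with week 28 lower, against 13.6% and 16.4% of all genes, and the median was -0.0007. Cox8b, the heart and muscle isoform of subunit 8, had 3.59, 4.54 and 6.13 FPKM at week 28, against 0.812, 1.97 and 2.79 FPKM at week 12 (1.05, SE 0.26, limma adjusted p = 0.0200), and 0.0798 without week 28 replicate 3. Ndufa5, of the peripheral arm of complex I, rose by 0.21 (SE 0.06, limma adjusted p = 0.0465; 0.152 without week 12 replicate 1), and Ndufb2 fell by 0.32 (SE 0.09, limma adjusted p = 0.0351; 0.116 without week 12 replicate 3). None of the 3 calls held without each library in turn.

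**Figure D5:**
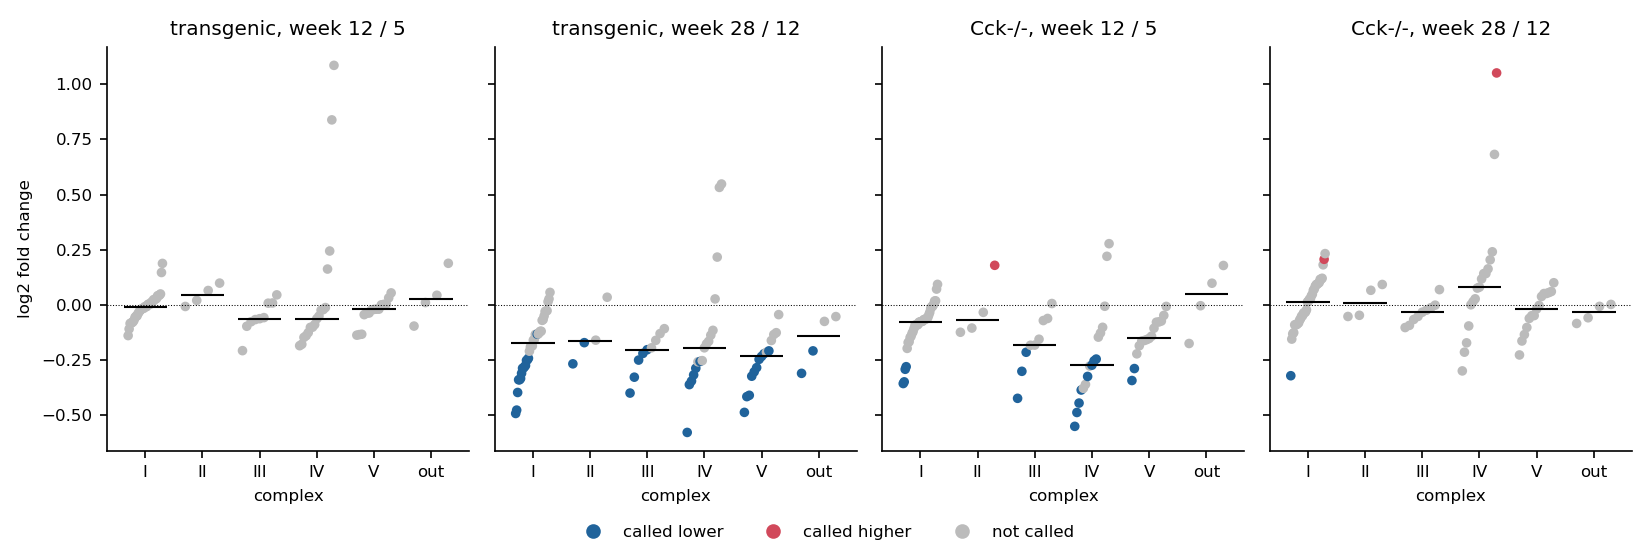
Log2 fold change between ages, later over earlier, of each of the 85 genes within each genotype, by complex (out: the 4 genes outside the complexes); blue points are genes called lower, red points genes called higher, grey points genes not called, and lines are medians. The blue points gather in transgenic libraries between weeks 12 and 28 (40 genes) and in Cck-/- libraries between weeks 5 and 12 (17 genes).

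The paired isoforms of complex IV are regulatory subunits whose versions are known from heart, muscle, lung and testis. In every group the general isoform made up nearly all of each pair. Cox7a1 was 6.75 ± 0.908% of the FPKM of Cox7a1 and Cox7a2 together in transgenic libraries at week 28, against 9.21 ± 0.834% in Cck-/- libraries (SD, n = 3 each). The transgenic shares ran from 6.12% to 7.79%, all below the Cck-/- shares of 8.42% to 10.1%. Cox7a2, the liver isoform, was at 208 ± 14.8 FPKM in transgenic and 226 ± 11.7 FPKM in Cck-/- libraries at that age (-0.12, SE 0.09, limma adjusted p = 0.439). Cox7b2 made up 6.67 ± 1.12% of its pair in transgenic libraries at week 28, against 3.94 ± 0.510% in Cck-/- libraries; its own difference did not pass (0.51, SE 0.27, limma adjusted p = 0.261). The lung and hypoxia isoform Cox4i2 stayed between 0.288% and 0.344% of its pair in the 6 group means. Cox6a2 varied more within groups than between them, for example 2.59, 4.25 and 1.02 FPKM in transgenic libraries and 3.79, 0.253 and 0.135 FPKM in Cck-/- libraries at week 28. Of the 3 genes for the identical c-ring subunit of complex V, Atp5g3 gave 59.9 ± 0.640% in transgenic and 59.0 ± 1.25% in Cck-/- libraries at week 28, and Atp5g1 19.2 ± 0.499% and 21.1 ± 1.17%.

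Other lists of mitochondrial genes were counted in the same comparisons. Of all genes tested, 4.54% were called higher and 6.13% lower in the genotype comparison at week 28. At week 28, 4 of 21 complex IV assembly factors fell in transgenic against Cck-/- libraries, led by Pet100 (-0.45, SE 0.08, limma adjusted p = 0.00262), Coa5 (-0.21, SE 0.05, limma adjusted p = 0.0248) and Coa3 (-0.21, SE 0.05, limma adjusted p = 0.0261), with a list median of -0.11. None of 13 tested assembly factors of complex I, 2 of complex II, 5 of complex III and 3 of complex V was called, with 4, 1, 2 and 2 of them at an unadjusted p under 0.05. Of 15 tested carriers and accessory proteins 4 fell, led by Usmg5, a small protein attached to ATP synthase (-0.31, SE 0.08, limma adjusted p = 0.0230). Among 13 regulators of mitochondrial gene expression 1 fell and 1 rose, near the shares of all genes called. Esrra, which encodes an ERR factor, fell (-0.37, SE 0.09, limma adjusted p = 0.0155). Nfe2l2, an activator of antioxidant genes, rose (0.32, SE 0.08, limma adjusted p = 0.0216). Of 77 mitochondrial ribosomal proteins 5 fell and none rose, a share near the 6.13% of all genes called lower, with a median of -0.12. None of 77 tested cytosolic ribosomal proteins was called (limma), with 3 at an unadjusted p under 0.05 and a median of -0.03, and the difference between the 2 lists was not tested. In transgenic libraries between weeks 12 and 28, 36 of the 77 mitochondrial ribosomal proteins fell, as did 9 of 21 complex IV and 4 of 13 complex I assembly factors, where 13.7% of all genes were called lower.

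The subunit genes have short transcripts, a feature that the choice by symbol did not use. The median longest transcript of the 84 with a GENCODE M21 length was 1026 bases, against 3432 bases over all genes tested with one. Other genes with transcripts under 1500 bases had a median log2 fold change of -0.05 at week 28 (transgenic over Cck-/-) and of -0.07 between weeks 12 and 28 in transgenic libraries, against 0.01 and 0.0049 for the longer ones. The subunit genes, of which 54 of 84 had transcripts under 1500 bases, had medians of -0.14 and -0.19 in the same comparisons, further from 0. Within the 84, the Spearman correlation of log2 fold change with length was 0.12 in both comparisons. For the genotype effect it was 0.36 at week 5 and -0.26 at week 12, and -0.53 for the change between these ages. In the genotype comparison at week 12 the other short genes had a positive median of 0.05, as the subunit genes had, against -0.0029 for the longer ones. At week 5 the other short genes had -0.0048 and the longer ones 0.0013. The part of transcript length in the result was not tested.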

How the data were processed

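FPKM per gene and library were deposited by the authors; per the submitters' processing notes TopHat2 2.0.11, Cufflinks 2.2.1 and the mm10 build were used, and the file headers name Cuffnorm. Neither annotation, normalization method nor depth is stated. No value of the 85 genes had a failed status (21 values in 11 other genes did). Genes with at least 1 FPKM in 3 of 18 libraries were kept. log2(FPKM + 1) was fitted with limma 3.58.1 (R 4.3.3) as 6 group means with a mean-variance trend and 12 residual degrees of freedom, and p-values were adjusted by the Benjamini-Hochberg method over 13487 genes in each of 10 comparisons, with calls at an adjusted p under 0.05. Fold changes on this scale understate those of low genes. Tested on simulated data for the week 28 genotype comparison, with 13487 genes, the fit called 38% of 100 genes changed by 0.25 (log2), 66% of 50 changed by 0.5 and 92% of 50 changed by 1. Only these genes were changed in the simulation, and its noise was independent between genes. The percentages therefore need not hold for the measured libraries.

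The genes and lists were chosen with earlier results of these data known. Named are every called gene where at most 12 were called in a direction and otherwise the 12 with the smallest p, the 3 with the smallest p where none was called, the highest and lowest gene of each complex, the isoform pairs, and at most 3 called genes of another list; others in the text were named after their values were seen. Alternatives were pseudocounts of 0.1 and 0.5, no filter, a mean of at least 5 FPKM, median-ratio rescaling, quantile normalization, no trend, library weights, a replicate block, choroid plexus level as a covariate, only the groups compared, and libraries left out. Leaving out transgenic week 12 replicate 2 in every comparison was chosen after seeing the data. The main fit did not pair libraries by replicate number. Gene positions come from GENCODE M21, promoters from RefSeq. Python 3.11.15, pandas 2.3.3, numpy 2.4.6 and matplotlib 3.10.9 served for tables and figures.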

Additional observations from a re-analysis of the deposited data

How the results depend on the processing

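Each median given below had the direction of the main fit, but some medians changed sign when 1 library was left out. They ran from -0.0037 to 0.11 for the genotype at week 12 and from -0.078 to 0.034 in transgenic libraries between weeks 5 and 12. In Cck-/- libraries between weeks 12 and 28 they ran from -0.041 to 0.027. No call of a single gene reversed in the 1418 repeats of a called gene (1096 stayed called, 322 did not). Values are genes called of the 85 unless named as a median. The share of all genes called under each alternative is not given here, so a higher count is not a result particular to these genes. Library weights gave 65 at week 28, 5 at week 5, 50 and 32 for the change of the genotype effect to week 28 from weeks 12 and 5 (medians -0.28 and -0.16), 1 in transgenic libraries between weeks 5 and 12, and 32 and 23 in Cck-/- libraries between weeks 5 and 12 and between weeks 12 and 28. Quantile normalization gave medians of -0.053 for the genotype at week 28, -0.11 for its change between weeks 12 and 28 and -0.074 in transgenic libraries between weeks 12 and 28, with 23 called there and 10 in Cck-/- libraries over that interval. Fitting only the groups compared gave 2 at week 28, 9 in transgenic and 0 in Cck-/- libraries between weeks 12 and 28. With no filter, 1 was called at week 5, and 10 and 1 in Cck-/- libraries over the earlier and the later interval. Without the libraries low in choroid plexus, 0 were called at week 5, 22 at week 28 and 1 for the change between weeks 5 and 28 (median -0.19), and with choroid plexus level as a covariate 0 at week 5. Without the libraries that held Xist together with Y-linked transcripts, 1 was called at week 5 (higher), 3 at week 28 and 7 in transgenic libraries between weeks 12 and 28 (median -0.12), with medians of 0.031 and -0.12 for the change of the effect over the earlier and later interval and -0.10 in transgenic libraries between weeks 5 and 12. The causes were not tested.

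Leaving out 1 library at a time gave 0 to 2 at week 5, 2 to 31 at week 28, 0 to 1 for the change of the effect between weeks 12 and 28 and likewise between weeks 5 and 28, 19 to 54 in transgenic libraries between weeks 12 and 28 (median -0.26 to -0.13), and 7 to 21 and 0 to 3 in Cck-/- libraries over the 2 intervals. No regular pairing by replicate number was seen: in no comparison did all 3 same-numbered pairs correlate above 0.1, and not every library correlated best with its own number. In the genotype comparison at week 12 the pairs of replicates 1, 2 and 3 correlated at 0.44, -0.16 and 0.28. Such correlations cannot exclude a pairing. A replicate block gave 1 call at week 5 and moved no other count by over 1.5 times. FPKM give no depth, so no counting error could be attached to single values.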

Other observations

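Calls in other metabolic lists at week 28 are set beside all genes tested, of which 4.54% were called higher and 6.13% lower. Of 17 glycolysis genes 2 fell in transgenic against Cck-/- libraries: Hk2, which phosphorylates glucose (log2 fold change -0.83, SE 0.16, limma adjusted p = 0.00425), and Aldoc, the aldolase of the brain (-0.45, limma adjusted p = 0.0153), while none rose. Of 17 citric acid cycle genes, Sucla2 fell (-0.18, limma adjusted p = 0.0345) and Suclg2 rose (0.47, limma adjusted p = 0.0379); both encode beta subunits of succinyl-CoA synthetase. Of 10 antioxidant enzymes Gpx1 fell (-0.19, limma adjusted p = 0.0440). Between weeks 12 and 28 in transgenic libraries, 4 glycolysis, 5 citric acid cycle and 3 antioxidant genes fell and none of these lists had a gene that rose, where 13.7% of all genes were called lower and 10.2% higher. Of 77 tested cytosolic ribosomal proteins, 2 rose and 4 fell over that interval.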
